A study of Mus musculus with 5 samples.

Results

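The resident macrophage genes C1qa, C1qb, C1qc, Pf4, Mrc1, Cd5l, Clec4f, Lyz2, Fcer1g and Ctss were followed through 5 single-cell RNA-seq libraries of mouse liver and aorta. They were chosen by name, as 10 genes of 25872 listed in at least 1 of 3 deposited count tables, and all 10 were present in every table. By their labels, 4 libraries carry the tag ApoE: liver DKO, liver WT, aorta DKO and aorta WT. The fifth is a WT liver library without that tag. Whether ApoE stands for a mutant allele is not said, and ApoE background below means only that a library's label carries this tag. The series title speaks of liver epsins in atherosclerosis, and the labels spell out neither the DKO genes nor any Cre driver, age, sex or diet. Liver was taken from WT and Liver-DKO mice, with 3 mice mentioned and no statement of whether animals were pooled. Each group had 1 library, so no difference below has a replicate check, no test was possible, and every interval covers counting error only.

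C1qa, C1qb and C1qc encode the 3 chains of C1q, the recognition molecule of the classical complement pathway, which binds immune complexes and dying cells and is made largely by tissue macrophages. Kupffer cells are the resident macrophages of the liver sinusoids. In mice they are marked by Clec4f, a C-type lectin, and Cd5l, a secreted scavenger-receptor-like protein that limits macrophage death. Mrc1 encodes the mannose receptor of macrophages and of liver sinusoidal endothelium. Pf4 encodes platelet factor 4, a chemokine of megakaryocytes and platelets that is also transcribed in several resident macrophage populations. Lyz2 encodes lysozyme M of macrophages, monocytes and neutrophils, Fcer1g the signalling chain shared by several Fc receptors, and Ctss cathepsin S, a lysosomal protease that trims the invariant chain during antigen presentation.

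The genes lie at separate loci except for the C1q chains, which share a cluster of 18675 bases on chromosome 4 and are all transcribed from the minus strand. In the GRCm38 annotation of GENCODE, C1qb spans chr4:136880129-136886187, C1qc spans chr4:136889804-136893065 and C1qa spans chr4:136895917-136898803. Cd5l lies at chr3:87357881-87371073 on the plus strand and Clec4f at chr6:83644542-83656187 on the minus strand. Pf4 lies at chr5:90772435-90773383, Mrc1 at chr2:14229392-14332057 and Ctss at chr3:95526786-95556403, all on the plus strand. Fcer1g lies at chr1:171229572-171234365 and Lyz2 at chr10:117277331-117282321, both on the minus strand. Lyz2 has a near copy, Lyz1, 5476 bases away, so its counts are uncertain to the extent that reads could be split between them. Mir511 lies inside Mrc1, and the pseudogene Hmgb1-ps5 inside Ctss.

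The upstream sequences of the C1q genes and of the Kupffer genes Cd5l and Clec4f are shown because these 2 groups are described separately below. They are the RefSeq promoters of GRCm38.p6, 5′ to 3′ on the gene's own strand and cut where exon sequence begins. C1qb is chr4:136886201-136886450, C1qc is chr4:136893066-136893164, Cd5l is chr3:87357631-87357880 and Clec4f is chr6:83656188-83656366. The C1qc and Clec4f stretches end 152 and 72 bases before the RefSeq start, and C1qa had no entry. Capitals mark GAGGAA, the core recognised by the macrophage factor PU.1, and TGCTGA, a half-site of MAF factors, on either strand (TTCCTC and TCAGCA).
C1qb: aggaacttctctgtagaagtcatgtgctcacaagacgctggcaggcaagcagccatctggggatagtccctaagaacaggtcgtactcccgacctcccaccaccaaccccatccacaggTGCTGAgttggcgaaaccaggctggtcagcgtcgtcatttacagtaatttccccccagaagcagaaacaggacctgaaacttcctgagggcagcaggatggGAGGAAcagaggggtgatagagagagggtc
C1qc: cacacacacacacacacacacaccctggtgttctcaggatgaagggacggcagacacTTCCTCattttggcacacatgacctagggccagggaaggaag
Cd5l: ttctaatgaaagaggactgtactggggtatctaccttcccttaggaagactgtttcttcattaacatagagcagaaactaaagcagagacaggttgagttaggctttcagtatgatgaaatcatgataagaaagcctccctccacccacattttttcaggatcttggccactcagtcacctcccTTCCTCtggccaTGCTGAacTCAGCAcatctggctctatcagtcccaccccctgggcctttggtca
Clec4f: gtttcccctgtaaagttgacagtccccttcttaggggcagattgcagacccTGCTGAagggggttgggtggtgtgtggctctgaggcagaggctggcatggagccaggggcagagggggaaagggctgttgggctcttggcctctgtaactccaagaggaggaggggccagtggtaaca

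GAGGAA was found once in the C1qb, C1qc and Cd5l stretches and not in that of Clec4f. TGCTGA was found once in C1qb and Clec4f and 2 times in Cd5l. Over 32851 mouse promoters, GAGGAA was held by 23.3% of 250-base windows, 17.1% of 179-base windows and 9.91% of 99-base windows. TGCTGA was held by 16.1%, 11.6% and 6.43% of the same windows. Among the other members with a promoter entry, GAGGAA was found 3 times in Mrc1 and once each in Pf4 and Ctss, and TGCTGA once each in Lyz2 and Ctss. A liver X receptor motif, AGGTCA repeated after 4 bases, was in none of the 9 promoters, and in 5 of the 32851. These matches describe the letters only.

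The liver libraries on the ApoE background held 4331 cells each, with 10999072 unique molecular identifiers (UMIs, single tagged RNA molecules) in the library labelled DKO and 9497896 in the library labelled WT. The aorta libraries held 2800 cells each, with 6228458 and 6383082 UMIs, and the liver library without the ApoE background held 616 cells with 1883798 UMIs. Median UMIs per cell ran from 1552 to 2771.5, and 4 cell barcodes were shared between the 2 libraries of each ApoE table. The epsin genes were not lower in the libraries labelled DKO. In liver, Epn1 had 67.8 counts per 1e+06 UMIs (CPM) in DKO and 57.4 in WT, and Epn2 had 10.3 and 8.0 CPM, so the labels are given here as labels. Apoe was lowly counted in every library, from 4.66 to 51.0 CPM.

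The authors' cell classes were used as deposited and checked against markers. In the aortic macrophage clusters MP1 and MP2, all 3 C1q genes stood among the 10 genes with the highest fold over other aortic cells. MP1 was further led by Fabp5, a fatty acid binding protein, and MP2 by the chemokines Ccl4, Ccl3 and Cxcl2 and by Tnf. MP3 was led by Plac8, a monocyte gene, and MP4 by S100a9 and S100a8, which mark neutrophils, so MP4 was not compared as a macrophage class. The class labelled Kupffer cell was led by Lyz2, with Cd5l and Fcer1g among its first 10 genes beside Plac8 and the stellate and fibroblast gene Dcn. Only part of its cells carried the defining genes. Of 162 cells in the library labelled DKO, 13 had a UMI of C1q, Cd5l or Clec4f (8.02%, 95% interval 4.34 to 13.3%), and of 79 cells in the library labelled WT, 17 did (21.5%, 13.1 to 32.2%). Among hepatocytes, which should lack these genes, any C1q was seen in 1 of 3382 cells in DKO (0.0296%) and 27 of 4040 in WT (0.668%), at median depths of 1652 and 1535 UMIs. The class had medians of 901.5 and 1272 UMIs per cell. At least as many of its cells carried genes of other immune cells: a UMI of the T and NK cell list was seen in 27.8% of cells in DKO and 22.8% in WT, and of the B cell list in 28.4% and 25.3%. In DKO and WT, the B cell list was seen in 30.5% and 28.8% of MP1 cells and 36.8% and 25.5% of MP2 cells. The T and NK cell list was seen in 14.6% and 18.6% of MP1 cells and 15.8% and 1.82% of MP2 cells. The B cell share was therefore not particular to the class labelled Kupffer cell. The defining genes were thus seen in a minority of its cells, and Kupffer cells or Kupffer class below means only the cells so labelled by the authors.

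**Figure D1:**
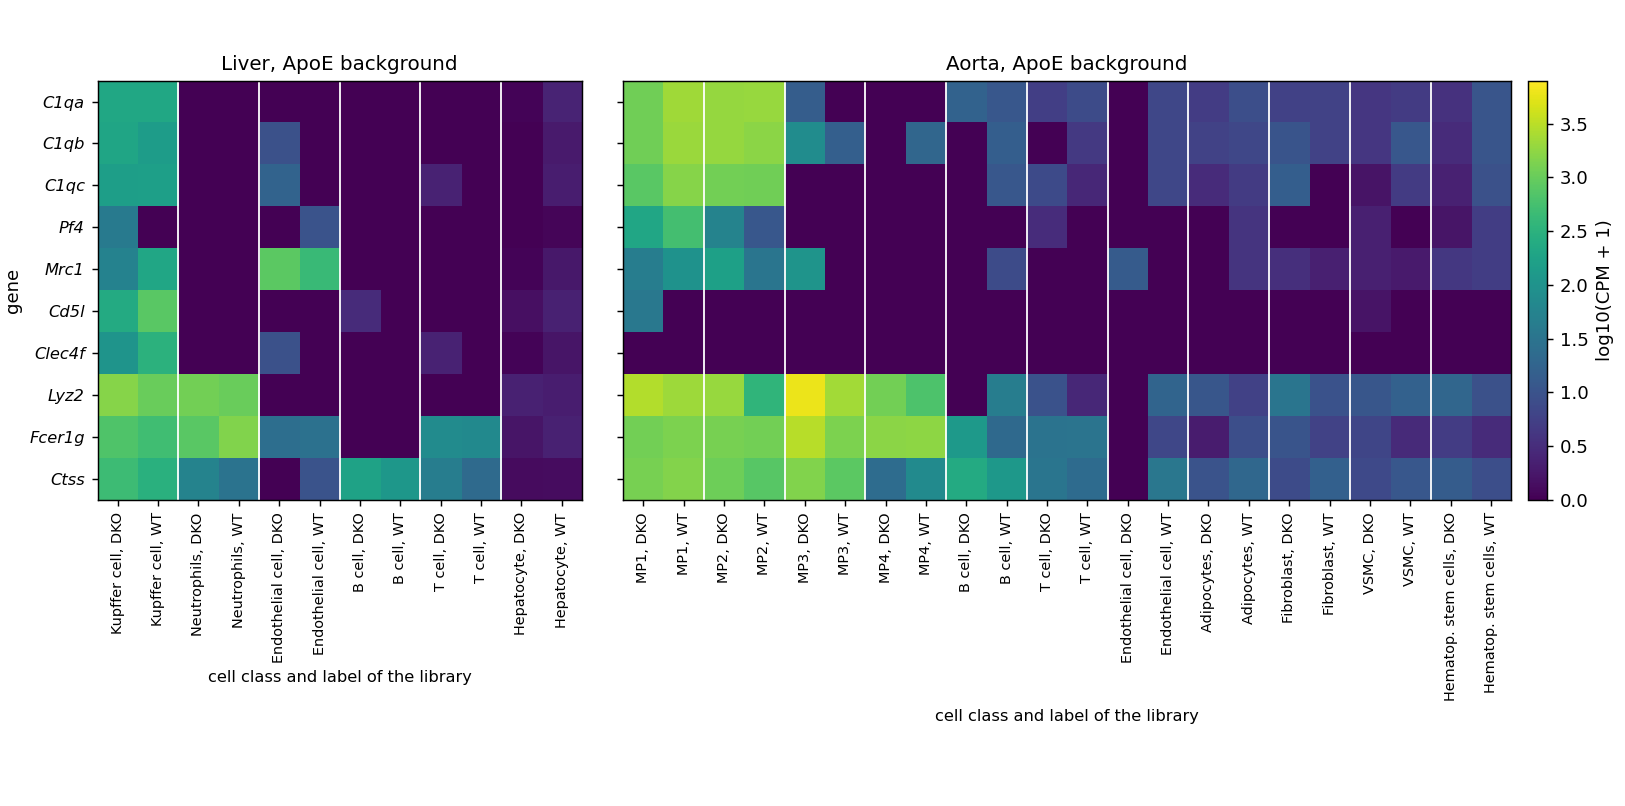
Level of each of the 10 genes, as log10 of CPM plus 1, in cell classes of the liver (left) and aorta (right) libraries on the ApoE background, with DKO and WT side by side. The C1q rows are bright in Kupffer cells, MP1 and MP2, Cd5l and Clec4f in Kupffer cells, and Lyz2, Fcer1g and Ctss also in MP3, while Clec4f is at 0 throughout the aorta.

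The 3 C1q genes lay largely in these macrophage classes in both tissues. In the aorta, 94.0 to 95.4% of a library's C1qa UMIs, 92.7 to 94.3% of its C1qb UMIs and 94.2 to 94.6% of its C1qc UMIs fell in MP1 or MP2. In liver, 97.8% of C1qa UMIs lay in Kupffer cells in the library labelled DKO and 68.3% in the library labelled WT, where hepatocytes held 13 of 41. For C1qb these shares were 97.6% and 70.4%, and for C1qc 91.4% and 70.0%. C1q levels in the aortic clusters were far above those of the liver class: C1qa stood at 210 CPM (153 to 282) and 212 CPM (141 to 306) in Kupffer cells of DKO and WT, against 1152 to 2196 CPM in MP1 and MP2. These levels are sums over all cells of a class, and the shares of cells with any C1q differed. In DKO and WT they were 7.41% and 16.5% in Kupffer cells, 80.5% and 79.7% in MP1, and 35.1% and 50.9% in MP2. The tables were counted on separate libraries and the classes were named separately, so tissue was not compared beyond these values.

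In Kupffer cells, the summed C1q levels of both libraries lay within counting error of each other, while C1q was seen in a smaller share of cells in the shallower DKO class, 12 of 162 (7.41%, 3.89 to 12.6%) against 13 of 79 in WT (16.5%, 9.06 to 26.5%), with intervals that met. C1qa had 44 UMIs in DKO and 28 in WT, C1qb 41 and 19, and C1qc 32 and 21. The ratios of CPM, DKO over WT, were 0.993 for C1qa (95% interval 0.605 to 1.66), 1.36 for C1qb (0.774 to 2.49) and 0.963 for C1qc (0.539 to 1.76). None of these intervals left out 1 and all reach past 1.5-fold, so equality is not shown.

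In MP1, all 3 C1q genes were lower in the library labelled DKO. C1qa had 131 UMIs (1152 CPM, 963 to 1366) in DKO and 427 (2196 CPM, 1992 to 2414) in WT, C1qb had 1125 and 2078 CPM, and C1qc had 800 and 1532 CPM. The 2 libraries' intervals did not meet for any chain. The ratios were 0.524 for C1qa, 0.542 for C1qb and 0.522 for C1qc. The share of MP1 cells with any C1q UMI was nevertheless alike, 66 of 82 in DKO (80.5%, 70.3 to 88.4%) and 94 of 118 in WT (79.7%, 71.3 to 86.5%), at median depths of 973 and 936 UMIs. Smooth muscle cells, which should lack C1q, carried a C1qa UMI in 0.484% and 0.629% of cells. Thinned to 500 UMIs per cell, C1qc was seen in 24.4% of MP1 cells in DKO and 41.5% in WT, and C1qa in 42.7% and 47.5%.

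In MP2 the summed C1q levels did not separate the libraries, but the C1qa ratio depended on how cells were weighted and filtered. C1qa stood at 1941 CPM in DKO and 1983 in WT (ratio 0.979), C1qb at 1948 and 1665 (ratio 1.17), and C1qc at 1174 and 1135 (ratio 1.03). The sums came from different numbers of cells: 20 of 57 MP2 cells had any C1q UMI in DKO (35.1%, 22.9 to 48.9%) and 28 of 55 in WT (50.9%, 37.1 to 64.6%). The C1q-bearing cells of the DKO library were deep, with a median of 4762 UMIs against 1088.5 in WT. Thinned to 500 UMIs per cell, C1qa was seen in 10 of 57 MP2 cells in DKO and 22 of 55 in WT. Averaged per cell in place of summing, the C1qa ratio was 0.558. After cells with at least 2 UMIs of other types' markers were left out, 4 and 87 C1qa UMIs remained, a ratio of 0.0749.

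**Figure D2:**
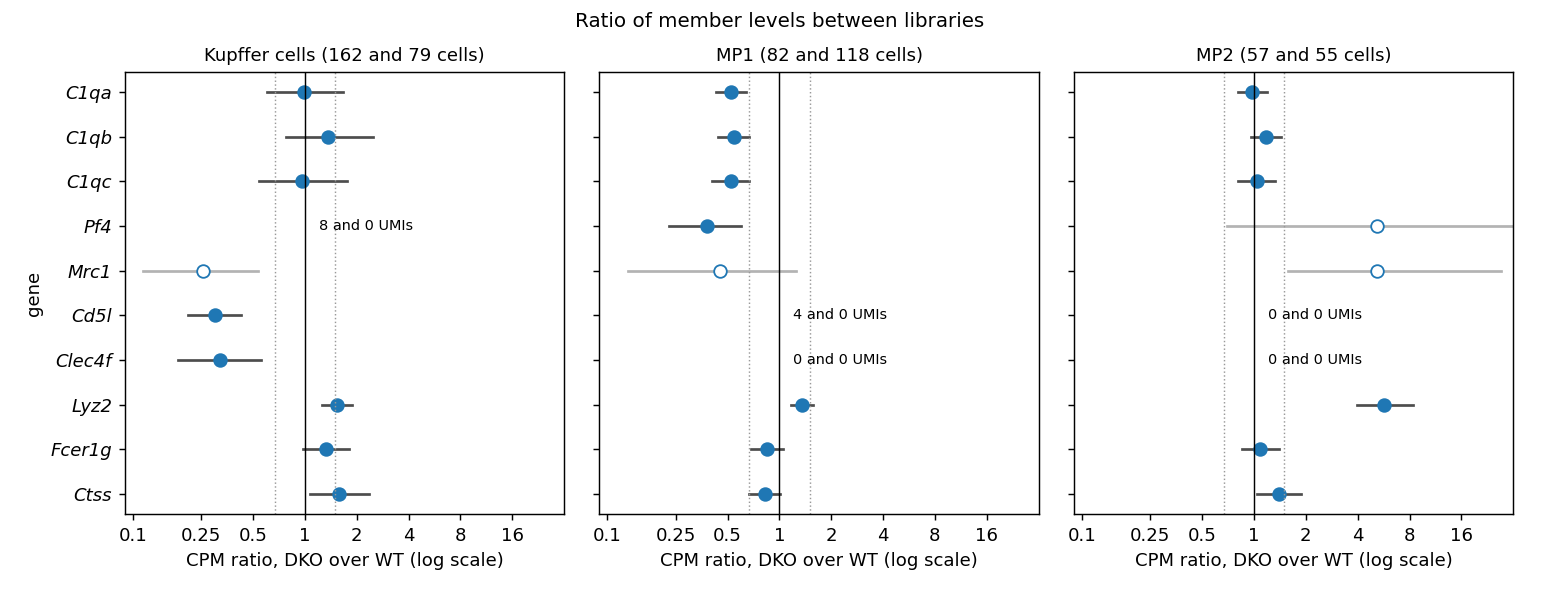
Ratio of CPM between the libraries labelled DKO and WT for each gene, on a log axis, in Kupffer cells, MP1 and MP2, with exact 95% intervals for counting error. Filled points have at least 50 UMIs in both libraries together, open points fewer, counts are written where a library had 0, and dotted lines mark 1.5-fold (the interval of Pf4 in MP2 runs past the axis). Cd5l and Clec4f stand at 0.301 and 0.323 in Kupffer cells, the C1q genes between 0.522 and 0.542 in MP1, and Lyz2 at 5.66 in MP2.

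Within each class the 3 chains kept similar proportions. UMIs are not corrected for how well each transcript is captured, so shares are set beside each other between classes, not between genes. C1qa made up 37.4% and 37.8% of C1q UMIs in MP1 of DKO and WT, 38.3% and 41.5% in MP2, and 37.6% and 41.2% in Kupffer cells. C1qc made up 26.0% and 26.4% in MP1 and 23.2% and 23.7% in MP2, and 27.4% and 30.9% in Kupffer cells, where the sums were 117 and 68 UMIs. The MP1 ratios of the 3 chains likewise lay between 0.522 and 0.542.

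**Figure D3:**
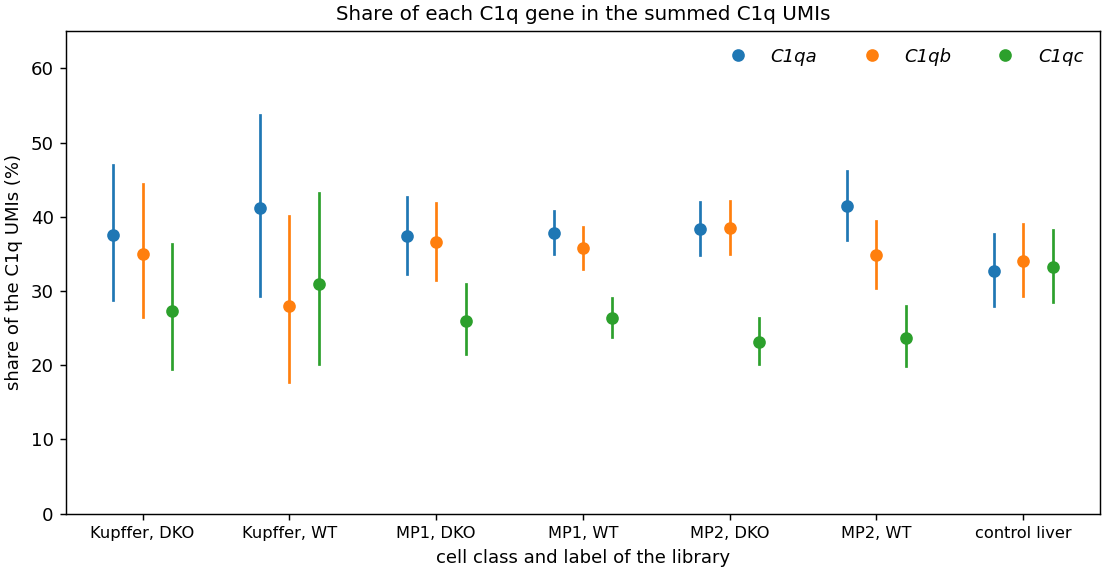
Share of C1qa, C1qb and C1qc in the summed C1q UMIs of each class and library, in percent, with exact binomial 95% intervals. C1qc stays between 23.2% and 26.4% in MP1 and MP2, and the control liver, the library without the ApoE background, has the chains at 32.7%, 34.0% and 33.2%.

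Cd5l and Clec4f were lower in the Kupffer class of the library labelled DKO. Cd5l had 50 UMIs in DKO (239 CPM, 177 to 315) and 105 in WT (794 CPM, 650 to 961). Clec4f had 22 UMIs (105 CPM, 65.9 to 159) and 43 (325 CPM, 235 to 438). For both genes the interval of the DKO library lay wholly below that of the WT library, with ratios of 0.301 (0.211 to 0.425) for Cd5l and 0.323 (0.184 to 0.553) for Clec4f. Few cells carried these UMIs: 8 of 162 cells had either gene in DKO (4.94%) and 13 of 79 in WT (16.5%), against 0.148% and 0.421% of hepatocytes. Thinned to 500 UMIs per cell, Cd5l was seen in 3.09% and 11.4% of the Kupffer cells.

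The ratio of these genes to C1q also differed. For every 100 C1q UMIs, Kupffer cells held 42.7 Cd5l UMIs in DKO (30.1 to 60.0) and 154 in WT (113 to 213). Clec4f stood at 18.8 (11.3 to 29.8) and 63.2 (42.1 to 94.0) per 100 C1q UMIs. The genes met in the same cells: of the cells with Cd5l or Clec4f, 7 of 8 in DKO and 9 of 13 in WT also had C1q. In DKO, 7 of those 8 cells also carried a monocyte or dendritic cell gene, and in WT 5 of 13 did. Without the 1 Kupffer cell of each library with the most UMIs of the 10 genes, the Cd5l ratio was 0.337 and the Clec4f ratio 0.362. Without the cells that carried a monocyte or dendritic cell gene, they were 0.110 and 0.129.

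Over all liver cells, Cd5l had 55 and 116 UMIs and Clec4f 25 and 49, ratios of 0.409 (0.291 to 0.569) and 0.441 (0.261 to 0.727). Such sums cannot tell fewer cells of a type from less RNA per cell. In the aorta, Clec4f was at 0 in both libraries. Cd5l had 5 UMIs, all in DKO and 4 of them in MP1, in 4 different cells.

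Other Kupffer genes were mixed. Of the 15 measured members of a Kupffer identity list, 4 reached 50 summed UMIs in the class. C6, a complement component, was at least 1.5-fold lower in DKO, with 26 UMIs in each library (124 and 197 CPM, ratio 0.632), and its interval of 0.353 to 1.13 included 1. Csf1r, the receptor of the macrophage growth factor CSF1, was higher, with 46 and 15 UMIs (ratio 1.94, 1.06 to 3.74). Slc40a1, the iron exporter, had 41 and 36 UMIs (0.720, 0.449 to 1.16), and Hpgd was the other gene that reached the minimum. The median log2 ratio of the 4 was -0.38, beside -0.12 over all 1094 genes that reached 50 UMIs. Among members below that minimum, Vsig4, a complement receptor, had 25 and 23 UMIs (ratio 0.687, 0.374 to 1.27), and Nr1h3, encoding liver X receptor alpha, had 10 and 22 (0.287, 0.121 to 0.632). Timd4, a phosphatidylserine receptor of long-lived Kupffer cells, had 5 and 6 UMIs, too few to read.

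Mrc1 behaved differently in each place. In Kupffer cells it had 11 UMIs in DKO (52.6 CPM, 26.3 to 94.1) and 27 in WT (204 CPM, 135 to 297), a ratio of 0.258 (0.115 to 0.536). All 11 DKO UMIs and 26 of the 27 WT UMIs lay in cells that also had C1q, Cd5l or Clec4f. Most Mrc1 of the liver lay elsewhere: endothelial cells held 98 and 48 UMIs, levels of 815 CPM (662 to 993) and 434 CPM (320 to 575), and Kupffer cells held 10.0% and 32.9% of the library's Mrc1. Endothelial cells ranked above Kupffer cells in both libraries, and their intervals did not meet. Endothelial Mrc1 was thus higher in the library labelled DKO and Kupffer Mrc1 lower.

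In the aorta Mrc1 was sparse. MP1 had 5 and 19 UMIs (44.0 and 97.7 CPM), a ratio of 0.450 whose interval included 1. MP2 had 24 UMIs in DKO (166 CPM, 106 to 247), in 6 cells, and 3 in WT (31.8 CPM, 6.56 to 93.0), a ratio of 5.21 (1.58 to 27.0). A single MP2 cell of the DKO library held 11 of the 24. MP3 had 8 Mrc1 UMIs in DKO, all in 1 cell, and 0 in WT.

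Pf4 was a gene of MP1. It had 23 UMIs in DKO (202 CPM, 128 to 303) and 104 in WT (535 CPM, 437 to 648), a ratio of 0.378 (0.230 to 0.598), and was present in 10 of 82 and 30 of 118 cells. The intervals of the libraries did not meet. In MP2 it had 8 UMIs and 1, 55.3 and 10.6 CPM, a ratio of 5.21 whose interval runs from 0.699 upward and includes 1. In Kupffer cells it had 8 UMIs in DKO, in 3 cells that all carried C1q, and 0 in WT, 1.69-fold higher in DKO when WT is set to a floor of 3 counts, with an exact lower limit of 1.08 for the ratio. MP1 and MP2 together held 88.6% and 92.1% of the aortic Pf4.

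Platelet genes were present in MP1 beside Pf4. The platelet list summed to 527 CPM in DKO, from 8 of its 12 measured genes, and 735 CPM in WT, from 10 of 12, led in both by Nrgn with 30 and 81 UMIs. Ppbp, the platelet basic protein, had 79.1 and 113 CPM. Cells with a UMI of a defining platelet gene (among them Ppbp, Itga2b, Gp9, Gp1bb, Gp5, Treml1 and Tubb1) numbered 3 and 11, all 3 of the former and 6 of the latter also had Pf4, and without them the Pf4 ratio was 0.249. The liver table holds only Itga2b and Gp5 of these defining genes, and both were at 0 in Kupffer cells of both libraries. Among the other platelet genes of that table, Itgb3 led the list in DKO with 16 UMIs and Clec1b in WT with 10, sums of 105 and 90.8 CPM.

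Lyz2, Fcer1g and Ctss, the members shared with other myeloid cells, had Kupffer ratios whose intervals met those of the C1q genes. In Kupffer cells Lyz2 had 330 UMIs in DKO (1578 CPM, 1412 to 1758) and 136 in WT (1029 CPM, 863 to 1217), a ratio of 1.53 (1.25 to 1.89). Ctss had 97 and 39 UMIs (464 and 295 CPM, ratio 1.57, 1.07 to 2.34). Fcer1g had 140 and 67 (669 and 507 CPM, ratio 1.32), with an interval of 0.980 to 1.79 that included 1. Lyz2 and Ctss were therefore higher in the DKO library, by a factor that leaving out the deepest 5% of cells brought to 1.25 and 1.44.

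The Lyz2 of the Kupffer class lay mostly outside the cells with Kupffer or C1q genes. Those cells held 92 of its 330 UMIs in DKO and 19 of 136 in WT. Of the 31 Lyz2-bearing cells in DKO, 30 carried a monocyte or dendritic cell gene, and of 17 in WT, 13 did. Such genes, among them Plac8 (231 and 129 UMIs), Ccr2 (33 and 10) and Chil3 (34 and 9), were seen in 53 of 162 cells (32.7%) and 23 of 79 (29.1%). Without these cells Lyz2 had 51 UMIs in DKO and 4 in WT, a ratio of 9.01. Leaving them out removed 30 of the 31 Lyz2-bearing cells in DKO and 13 of the 17 in WT. All 51 DKO UMIs thus lay in the only such cell left, so this ratio does not describe the class. The monocyte list summed to 2888 and 2254 CPM, with all 15 of its genes seen in both libraries, and its part in the Lyz2 values was not tested.

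In MP1 these members split. Lyz2 was higher in DKO, with 323 UMIs (2839 CPM, 2538 to 3166) against 410 (2108 CPM, 1909 to 2323), a ratio of 1.35 (1.16 to 1.56). Averaged per cell, with every cell weighing the same, the ratio was 0.761, so the direction depends on how cells are weighted. Fcer1g (1169 and 1373 CPM, ratio 0.852) and Ctss (1239 and 1512 CPM, ratio 0.820) were slightly lower with intervals that included 1.

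Among ratios with at least 50 UMIs in Kupffer cells, MP1 and MP2, that of Lyz2 in MP2 was farthest from 1. It had 287 UMIs in DKO (1982 CPM, 1759 to 2225) and 33 in WT (350 CPM, 241 to 491), a ratio of 5.66 (3.94 to 8.39). Lyz2 was seen in 28 of 57 MP2 cells in DKO (49.1%, 35.6 to 62.7%) and 14 of 55 in WT (25.5%, 14.7 to 39.0%). These intervals met. After thinning to 500 UMIs the shares were 21.1% and 10.9%. The ratio was 2.15 when averaged per cell, 3.05 without the deepest 5% of cells and 1.80 without cells with other types' markers. These values are above 1 each time but are given without intervals. The 10 richest MP2 cells held 85.6% of the UMIs of all members in DKO and 77.9% in WT. Per 100 C1q UMIs, MP2 held 39.2 Lyz2 UMIs in DKO and 7.32 in WT, while Fcer1g stood at 24.8 and 24.2. The MP2 cells of the WT library thus carried C1q and Fcer1g with little Lyz2. Ctss was at 1077 and 774 CPM, a ratio of 1.39 (1.05 to 1.86).

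**Figure D4:**
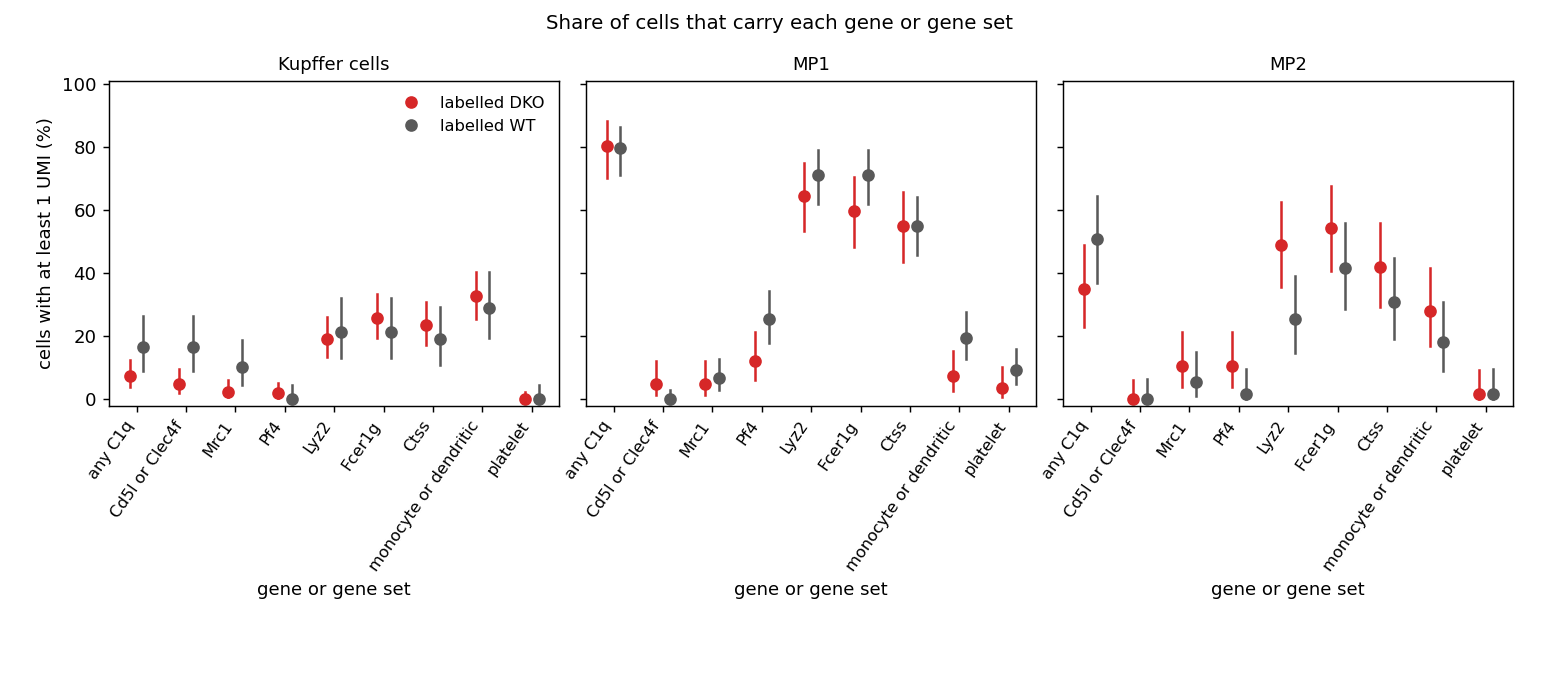
Share of the cells in Kupffer cells, MP1 and MP2 with at least 1 UMI of each gene or gene set, in percent, with exact binomial 95% intervals, in the libraries labelled DKO (red) and WT (grey). C1q marks about 80% of MP1 cells in both libraries (80.5% and 79.7%), and in Kupffer cells monocyte or dendritic cell genes mark 32.7% and 29.1%, against 7.41% and 16.5% for C1q.

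Read as a group, the 10 genes were not apart from other genes in Kupffer cells. Of the 8 that reached 50 UMIs, Lyz2 and Ctss were at least 1.5-fold higher and Cd5l and Clec4f at least 1.5-fold lower in DKO, where 47.6% of 1094 genes passed that fold in either direction, 18.8% higher and 28.8% lower. Pf4 and Mrc1 did not reach 50 UMIs. The median log2 ratio of the 8 was 0.20.

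In MP1, 4 of the 7 members that reached 50 UMIs, the C1q genes and Pf4, were at least 1.5-fold lower and none was as much higher, where 24.9% of 918 genes passed, 18.6% lower and 6.32% higher. Mrc1, Cd5l and Clec4f did not reach the minimum. The median log2 ratio of the 7 was -0.88, beside -0.15 over all genes. In MP2, 1 of 6, Lyz2, passed the fold, where 39.8% of 821 genes did, 19.6% higher and 20.2% lower. Their median was 0.17, beside 0.00 over all genes.

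Over whole libraries, 5 of the 9 members that reached 50 UMIs in liver passed 1.5-fold, where 16.9% of 10892 genes did, 13.8% higher and 3.09% lower. Lyz2 (ratio 2.06), Fcer1g (1.56) and Ctss (2.80) were higher in DKO, and Cd5l and Clec4f lower. In the aorta 3 of 8 passed, where 14.3% of 12330 genes did, 7.3% higher and 6.99% lower. C1qc (0.658) and Pf4 (0.315) were lower and Lyz2 (1.75) higher. C1qa (0.678, 0.599 to 0.767) and C1qb (0.737, 0.650 to 0.835) were lower but within 1.5-fold. The aortic Lyz2 ratio was 0.717 averaged per cell, 0.848 without the deepest 5% of cells and 0.786 without cells with other types' markers, so its direction does not hold across these settings.

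By summed CPM, the clusters MP1 and MP2 differed from each other in different ways in the 2 libraries. C1qa was higher in MP2 than in MP1 in DKO, by 1.69 (1.36 to 2.09). In WT it was not, with a ratio of 0.903 (0.756 to 1.07). C1qb stood at 1.73 and 0.801, and C1qc at 1.47 and 0.740. The share of cells with any C1q was lower in MP2 in both libraries. It was 35.1% against 80.5% in MP1 in DKO, and 50.9% against 79.7% in WT. The C1q-bearing cells of DKO had median depths of 4762 UMIs in MP2 and 1116 in MP1. Lyz2 was lower in MP2 in both, at 0.698 (0.593 to 0.821) in DKO and 0.166 (0.113 to 0.237) in WT. Pf4 was lower in MP2 in both as well, at 0.273 and 0.0198. These clusters were formed on the same cells' genes, so a difference between them is a description and no result.

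Other genes of the aortic clusters give the setting of these values. In MP1, 6 of the 8 pan-macrophage genes that reached 50 UMIs were at least 1.5-fold lower in DKO, where 18.6% of all genes were, and none higher. Aif1, an actin-bundling protein of macrophages, had 11 and 43 UMIs (0.437, 0.203 to 0.862), while Cd68, a lysosomal membrane protein, had 42 and 67 (1.07, 0.711 to 1.60). All 3 measurable genes of the resident arterial list were lower, Ccl8 with 4 and 63 UMIs (0.109) and Selenop, a selenium transport protein, with 27 and 119 (0.388, 0.245 to 0.593). In the lipid-associated list 4 of 10 were higher, where 6.32% of all genes were, and none lower. Fabp5 had 330 and 144 UMIs (3.92, 3.21 to 4.80) and Spp1, osteopontin, 383 and 308 (2.13, 1.82 to 2.48).

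The MHC class II gene H2-Aa stood in opposite directions in the clusters. It had 48 and 186 UMIs in MP1 (0.441, 0.314 to 0.609) and 194 and 11 in MP2 (11.5, 6.28 to 23.4). Of the dendritic cell list, which holds it, 4 of 15 measured genes reached 50 UMIs in each cluster. At least 1.5-fold, 3 of these 4 were lower in MP1, where 18.6% of all genes were, and 4 of 4 higher in MP2, where 19.6% were. Of 11 inflammatory genes in MP2, 5 were at least 1.5-fold lower in DKO, where 20.2% of all genes were, and none higher, from Ptgs2, a prostaglandin synthase, with 27 and 51 UMIs (0.345) to Cxcl1 with 146 and 65 (1.46). Tnf had 81 and 137 UMIs (0.385, 0.289 to 0.511) and Cxcl2, a neutrophil-attracting chemokine, 1140 and 1462 (0.508, 0.470 to 0.549). Genes of other cells moved with MP2: the smooth muscle list summed to 12453 CPM in DKO and 4899 in WT, with all 7 measurable genes higher in DKO, and S100a9 had 54 and 4 UMIs. In MP1 the smooth muscle list stood at 16851 and 19392 CPM. Their part in the values of the 10 genes was not tested.

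In Kupffer cells, the lists nearest to the members in function were mixed. Of 6 other complement genes, 4 were at least 1.5-fold lower in DKO, where 28.8% of all genes were, and none higher. Serping1, the C1 inhibitor, had 37 and 66 UMIs (0.354, 0.230 to 0.538). Of 13 lysosomal genes, 1 was higher and 1 lower, the latter being Lamp2, a lysosomal membrane protein, with 73 and 74 UMIs (0.624, 0.445 to 0.874). In the pan-macrophage list 2 of 7 were higher, where 18.8% of all genes were, and none lower. They were Spi1, encoding PU.1, with 53 and 15 UMIs (2.23, 1.24 to 4.27), and Csf1r, which is also in the Kupffer identity list.

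Genes of hepatocytes were abundant in the Kupffer class and moved with it. The hepatocyte list, with all 15 genes seen in every Kupffer cell pool, summed to 52248 CPM in DKO and 117122 in WT, and 13 of its 15 genes were at least 1.5-fold lower in DKO, where 28.8% of all genes were. Alb, albumin, stood at 17457 and 35226 CPM. The T and NK cell list stood at 779 and 189 CPM. The erythroid list stood at 81.3 and 3222 CPM, the latter from 1 cell. Gm42418, an RNA that overlaps a ribosomal repeat, took 134715 and 36232 CPM. With it and mitochondrial and haemoglobin genes out of the denominator, Cd5l had a ratio of 0.333, Clec4f 0.358, Lyz2 1.70 and C1qa 1.10. The part of these other cells' genes in the members' values was not tested.

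The UMIs of the members were unevenly spread over cells. The cells with C1q, Cd5l or Clec4f held 46.6% of the member UMIs of the Kupffer class in DKO and 61.4% in WT. The 1 richest cell held 103 of 775 UMIs (13.3%) in DKO and 102 of 485 (21%) in WT, and the 10 richest held 58.8% and 85.6%. At least 1 of the 10 genes was seen in 51 of 162 Kupffer cells in DKO and 26 of 79 in WT. In MP1, 79 of 82 and 108 of 118 cells had one, and in MP2 40 of 57 and 42 of 55. The 10 richest cells held 48.4% and 35.4% in MP1 and 85.6% and 77.9% in MP2.

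Outside the macrophage classes, Lyz2, Fcer1g and Ctss were the members most counted in other immune cells. Lyz2 in liver neutrophils stood at 1177 CPM in DKO (85 UMIs) and 1024 in WT (34 UMIs), with intervals that met those of Kupffer cells. Fcer1g in neutrophils stood at 803 CPM in DKO, above the Kupffer interval but with an interval (610 to 1038) that met it, and at 1445 CPM (1066 to 1916) in WT, from 17 cells, where it did not meet that of Kupffer cells. Ctss in liver B cells stood at 178 CPM (143 to 219) and 113 CPM (69.3 to 175), second to Kupffer cells in both libraries, and aortic B cells had 238 and 120 CPM. T cells of the liver carried Fcer1g at 75.1 and 69.2 CPM and Ctss at 43.7 and 21.6 CPM. Kupffer cells thus held 53.4% and 46.2% of the liver's Fcer1g UMIs and 43.3% and 56.5% of its Ctss UMIs, against 90.9% and 90.5% for Cd5l.

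MP3, with 14 and 29 cells, had Lyz2 at 6031 CPM in DKO and 2296 in WT, and Fcer1g at 3009 and 1358 CPM. Every MP3 cell in DKO and 28 of 29 in WT had Lyz2. C1q was almost absent, with 7 UMIs in DKO, 6 of them C1qb in 1 cell, and 1 in WT. MP4, with 20 cells in each library, had Fcer1g at 1691 and 1738 CPM and 0 and 1 C1q UMIs. MP3 and MP4 thus carried Lyz2 and Fcer1g with almost no C1q, while MP1 and MP2 carried all 5 genes.

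Across 59 pools of at least 50 cells (the authors' clusters by library, from both tables on the ApoE background), the C1q genes were most like each other, with Pearson r on log2(CPM + 1) of 0.908 for C1qa and C1qb, 0.910 for C1qb and C1qc, and 0.886 for C1qa and C1qc. Cd5l and Clec4f stood at 0.803 with each other. C1qa and Clec4f stood at 0.268, and Pf4 and Clec4f at 0.0774. The pools share libraries and depths, so these values are a description. Outside the list, the gene most like C1qa was Aif1 (0.865), followed by Ms4a7 (0.838), a membrane protein of macrophages, and Kcnk13 (0.836), a potassium channel. C3ar1, the receptor of complement fragment C3a, was first for C1qb (0.858), Ms4a7 for C1qc (0.826) and Aif1 for Pf4 (0.785).

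Mrc1 was most like Gatm (0.825), the first enzyme of creatine synthesis, then Fcgr2b (0.749) and Stab1 (0.743), a scavenger receptor of sinusoidal endothelium. Cd5l and Clec4f shared Zfp804b (0.789 and 0.836) and C6 (0.728 and 0.808). Clec4f rests on 74 UMIs in all. Lyz2 was most like Adgre1 (0.835), encoding F4/80, and Fcer1g most like Tyrobp (0.815), a signalling adaptor of the same kind. Among the 3 genes most like Ctss were Tm6sf1 (0.827) and Tyrobp (0.824).

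The liver library without the ApoE background had no Kupffer class, and the authors called all its 616 cells hepatocytes. It nevertheless held 893 UMIs of the 10 genes, 474 CPM (443 to 506), in 419 cells (68.0%). Hepatocytes of the ApoE libraries held 2.99 CPM in DKO (1.99 to 4.32), in 0.591% of cells, and 8.85 CPM in WT (6.99 to 11), in 1.78% of cells. Cd5l had 185 UMIs, C1qb 130, C1qc 127, C1qa 125, Fcer1g 103, Lyz2 85, Ctss 66, Clec4f 41 and Mrc1 31, and Pf4 had 0. Any C1q was seen in 260 cells (42.2%).

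In that library the UMIs were thinly spread. No cell had more than 10, the mean over cells with any was 2.13, and the 10 richest cells held 8.29% of the total. In the other 4 libraries the 10 richest cells held 25.4 to 56.5%, and the mean over cells with any ran from 4.46 to 10.9. Across its clusters the summed level ran from 137 CPM in cluster 4 to 867 CPM in cluster 2. With no macrophage class and no other library of its table, these values are a description and give no comparison of genotype or background.

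**Figure D5:**
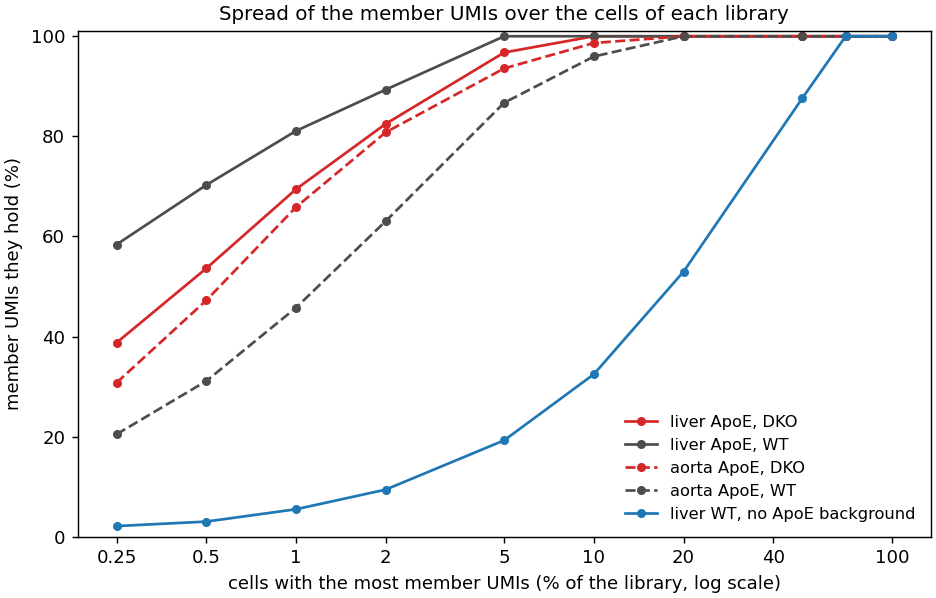
Share of a library's UMIs of the 10 genes (vertical axis, percent) held by its richest cells (horizontal axis, percent of cells, log scale), for the 5 libraries. The richest 1% of cells hold 69.4% and 81.1% in the liver libraries on the ApoE background, 65.8% and 45.7% in the aorta libraries, and 5.49% in the liver library without it.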

How the data were processed

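The authors deposited raw UMI counts per gene and cell as 3 tables, each with cell metadata. Cell Ranger 7.1.0 and the mouse build mm10 are named per the submitters' processing notes. The sources used here do not say how cells were filtered, integrated or named. The deposited cells have at least 499 UMIs, 201 to 2499 detected genes, and mitochondrial shares up to 20.0% in liver and 5.00% in aorta. Types, aortic subtypes and clusters are the authors', and 27 other metadata columns per table were not used.

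For each class and library, UMI counts were added up and divided by all UMIs of that class to give CPM, with exact Poisson 95% intervals. Ratios of DKO over WT have exact conditional binomial intervals, and shares of cells Clopper-Pearson intervals, all for counting error only. Genes with at least 50 summed UMIs were used for folds of 1.5 over all genes. The floor was 3 counts. Cells were thinned to 500 UMIs with a fixed seed, or to 1000 as an alternative. Each thinned share was drawn once, so it also carries the error of that draw. Separate draws at 500 UMIs on the same 616 cells of the liver library without the ApoE background found C1qa in 16 and 22 cells. Other alternatives were the denominator, centring on the median gene, means per cell, filters on detected genes, on the deepest 5% of cells and on cells with at least 2 UMIs of other types' markers. No doublet caller was run. Leaving out cells with platelet, monocyte or dendritic cell genes, or the richest cell, was added after seeing the data. The ratio code was tested on simulated data. Likeness was Pearson's r of log2(CPM + 1) among genes with at least 100 UMIs.

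All 10 members are named. Other genes were named as the 3 most like each member, the highest and lowest of a described list, up to 4 of each direction ranked by the ratio's bound nearest to 1. Epn1, Epn2, Apoe and the leading or marker genes given as context fall outside that rule and were chosen after their values were seen. Some genes that the rule would name are not reported here. The members and lists were chosen with earlier results of these data known. Python 3.11.15, numpy 2.4.6, scipy 1.17.1, pandas 2.3.3 and matplotlib 3.10.9 were used.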

Additional observations from a re-analysis of the deposited data

Results flagged for a closer look

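Mrc1 stood in opposite directions in 2 classes: the ratio of DKO over WT was 5.21 in MP2 and 0.258 in Kupffer cells, from 27 and 38 UMIs. Pf4 was 1.69-fold higher in DKO in Kupffer cells when WT, with 0 UMIs, is set to a floor of 3 counts (exact lower limit 1.08, from 8 UMIs), and at 0.378 in MP1. Cd5l was 2.28-fold higher in DKO in MP1 against the same floor (exact lower limit 1.13, from 4 UMIs in 4 cells), and at 0.301 in Kupffer cells. With 1 library on each side, none of these differences between classes was tested, and liver and aorta were counted in separate tables.

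The liver library without the ApoE background, which has no class of macrophages, held the 10 genes at 474 CPM summed, where hepatocytes of the ApoE libraries held 2.99 and 8.85 CPM. These values are set side by side and the difference was not tested.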

How the results depend on the processing

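No paired analysis was possible because each group has 1 library. The range of a median runs from the median of its members' lower bounds to the median of their upper bounds. It is not an interval for the median. Of 41 alternative values of the members' median log2 ratio, 33 stayed within that range and 3 changed sign, none of a median whose range excluded 0. The Kupffer median was -0.01 with no minimum on UMIs. The MP1 median was -1.23 averaged per cell. The MP2 median was 0.65 without the deepest 5% of cells and -0.92 without cells with other types' markers. The all-liver median was -0.33 without cells with other types' markers. The all-aorta median was -1.23 per cell, -0.050 with at least 500 detected genes, -1.16 without the deepest 5% and -1.27 without other types' markers. The cause was not tested.

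Of 306 alternative ratios of single members, 39 lay on the other side of 1. In 35 the main interval already included 1. The other 4 were of Lyz2: 0.761 per cell in MP1, and 0.717 per cell, 0.848 without the deepest 5% and 0.786 without other types' markers over all aorta. By size, 72 moved by more than counting error.

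Thinned to 1000 UMIs, the share of cells with a member was 55.6% for Kupffer cells in DKO, over the 63 cells deep enough, and 88.9% for MP2 in WT, over 27. Without Gm42418, AY036118, mitochondrial and haemoglobin genes in the denominator, summed members stood at 4404 CPM in Kupffer cells of DKO, 9874 and 12303 in MP1 of DKO and WT, and 10506 in MP2 of DKO. With at least 500 detected genes, Kupffer cells were 2.33% of the liver DKO library, where the main share was 3.74% (1.82% in WT). Macrophages, MP4 among them, were 6.54% of the aorta WT library, where the main share was 7.93% (6.18% in DKO). Cells with at least 2 UMIs of the pan-macrophage list were 25.5% and 18.3% of liver DKO and WT and 23.3% and 26.6% of aorta. Fewer than 50 UMIs lay behind 12 of 50 member ratios, Mrc1 in all 3 macrophage classes among them.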
